A study of Mus musculus with 25 samples.

Results

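Late sterol synthesis is the stretch of the cholesterol pathway from lanosterol, the first ring-shaped sterol, to cholesterol. The genes analysed here are 8 enzymes of that stretch, Cyp51, Tm7sf2, Msmo1, Nsdhl, Hsd17b7, Ebp, Sc5d and Dhcr7, out of 23116 genes in the deposited expression table. They were chosen by their place in the pathway and with the Znf143 -/- against Znf143 f/f difference in this table already known, so that their difference between genotypes is given as a description. RNA was measured in HSLAM cells, the LSK+ CD150+ CD48- fraction of bone marrow in which hematopoietic stem cells (HSCs) are found, from 3 Znf143 f/f and 3 Znf143 -/- male C57BL/6 mice aged 8 to 12 weeks. The Znf143 -/- mice carried Rosa26ERT2-Cre, a tamoxifen-activated recombinase expressed in all tissues, and the Znf143 f/f littermates carried the floxed allele without Cre. The loxP sites flank exon 1 of Znf143, the gene of a zinc finger protein that binds promoters. Both genotypes received the middle dosage of tamoxifen, and cells were taken at 10 days, so that tamoxifen was shared by all 6 libraries while Cre was present in 1 genotype alone and its effect cannot be told apart from that of the deletion. The study calls all of these mice littermates in 1 place and 3 pairs of littermates in another. Which libraries form a pair is not given in the sources used here.

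Animal cells make cholesterol from acetyl-CoA through the mevalonate pathway, and the enzymes described here work in the endoplasmic reticulum after the sterol ring has closed. The first 5 in the list carry out the demethylation of lanosterol, including a reduction between its steps, and the last 3 move, add and remove double bonds in the ring. Many of these genes are known targets of SREBP transcription factors, which are released from the endoplasmic reticulum when sterols are scarce and act together with the promoter-binding proteins NF-Y and Sp1. Ebp is also known as a binding site of tamoxifen, the agent given to both genotypes here.

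All 8 genes are protein coding. On GRCm38 with the GENCODE M21 annotation, Cyp51 lies at chr5:4081145-4104746 on the minus strand, Tm7sf2 at chr19:6062821-6068373 on the minus strand, Msmo1 at chr8:64718139-64733792 on the minus strand and Nsdhl at chrX:72918557-72958514 on the plus strand. Hsd17b7 lies at chr1:169949535-169969241 on the minus strand, Ebp at chrX:8185329-8193512 on the minus strand, Sc5d at chr9:42251595-42264256 on the minus strand and Dhcr7 at chr7:143823145-143848410 on the plus strand. The deposited values do not separate exons or transcripts. The gene length in the table equals the exonic length in GENCODE M21 for 7 of the 8 genes and is 3484 bases, against 4403 in M21, for Tm7sf2, so that the table used other exons for this gene. Exons of Cyp51 share 166 bases with Akap9 on the opposite strand, and exons of Tm7sf2 share 532 bases with Vps51 on the same strand, which is 12.1% of the M21 exonic bases of Tm7sf2. The library kit does not mark strand, so that fragments from these shared bases cannot be assigned with certainty. The other 6 genes share no exonic base with another annotated gene.

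RefSeq gives 10 promoter windows for the 8 genes on GRCm38.p6, each of 250 bases before and 50 bases after a transcription start, with 3 starts for Dhcr7 and 1 for each of the others. The windows are shown for the 3 genes that fell past the threshold in the comparison described further on, Msmo1, Tm7sf2 and Nsdhl, and for Ebp, the gene with the smallest difference between genotypes. Capitals mark matches to CCAAT, the box bound by NF-Y, and to GGGCGG, the box bound by Sp1, on either strand, so that ATTGG and CCGCCC are matches on the opposite strand.
Msmo1 promoter, chr8:64733529-64733828, minus strand: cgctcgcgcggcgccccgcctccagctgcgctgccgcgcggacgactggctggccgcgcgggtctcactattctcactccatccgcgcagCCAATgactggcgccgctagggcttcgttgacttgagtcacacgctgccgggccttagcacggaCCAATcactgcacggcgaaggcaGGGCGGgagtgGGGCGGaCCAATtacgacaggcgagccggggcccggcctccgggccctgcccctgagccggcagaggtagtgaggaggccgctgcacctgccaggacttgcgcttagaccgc
Tm7sf2 promoter, chr19:6067801-6068100, minus strand: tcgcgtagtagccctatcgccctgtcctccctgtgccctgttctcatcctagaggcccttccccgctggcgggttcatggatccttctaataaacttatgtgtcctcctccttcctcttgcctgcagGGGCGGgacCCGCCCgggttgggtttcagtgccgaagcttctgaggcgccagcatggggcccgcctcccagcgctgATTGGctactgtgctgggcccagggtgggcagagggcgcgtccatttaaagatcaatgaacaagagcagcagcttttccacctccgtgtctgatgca
Nsdhl promoter, chrX:72918271-72918570, plus strand: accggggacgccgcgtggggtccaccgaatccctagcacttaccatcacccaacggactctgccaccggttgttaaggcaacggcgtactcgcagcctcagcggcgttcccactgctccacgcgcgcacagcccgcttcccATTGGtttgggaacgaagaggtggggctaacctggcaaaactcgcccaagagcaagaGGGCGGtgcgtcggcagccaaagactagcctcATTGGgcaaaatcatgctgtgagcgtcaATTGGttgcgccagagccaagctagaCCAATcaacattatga
Ebp promoter, chrX:8193463-8193762, minus strand: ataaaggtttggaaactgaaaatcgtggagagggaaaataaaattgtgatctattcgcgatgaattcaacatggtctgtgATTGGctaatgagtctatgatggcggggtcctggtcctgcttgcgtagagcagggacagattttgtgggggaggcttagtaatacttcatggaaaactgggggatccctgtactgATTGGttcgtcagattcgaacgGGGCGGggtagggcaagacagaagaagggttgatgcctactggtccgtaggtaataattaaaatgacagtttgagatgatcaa

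CCAAT was found in a window of all 8 genes, in 8 of the 10 windows, compared with 37.4% of 32851 mouse promoter windows of the same length. GGGCGG was also found in all 8 genes, in 9 of the 10 windows, compared with 35.7% of all windows. Both boxes together stood in 8 of the 10 windows and in 12.8% of all windows. The Msmo1 window held 3 CCAAT and 2 GGGCGG matches, with the CCAAT at -55 and the GGGCGG at -62 separated by a single base. The Nsdhl window held 4 CCAAT matches, of which those at 9 and 35 lie after the start. The Ebp window, whose gene did not differ between genotypes beyond the spread, held both boxes as well, with 2 CCAAT matches and 1 GGGCGG match. Of the 3 Dhcr7 windows, the third had 2 CCAAT and 3 GGGCGG matches, the first had 1 GGGCGG match and the second had neither. The windows of the 8 genes were richer in G and C than most, with a median of 62.2% and a range of 45.3% (Ebp) to 70.7% (Msmo1), against a median of 52.7% over all windows, and the part of base composition in these shares was not tested.

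The letters CACNCCAC, a core of the sterol regulatory element bound by SREBP, were in 0 of the 10 windows and in 6.24% of all windows. ACTACAA, an upstream stretch of the sequence bound by ZNF143, and the core of that sequence, CCCA and ATGC with 2 free bases between them, were also in 0 of the 10 windows, compared with 3.24% and 1.88% of all windows. All 5 letter strings were searched on both strands, and no match of 1 string overlapped a match of another. With matches after the start left out, the counts of genes were the same for each string. A string that is missing from these windows says only that these letters are not there.

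**Figure D1:**
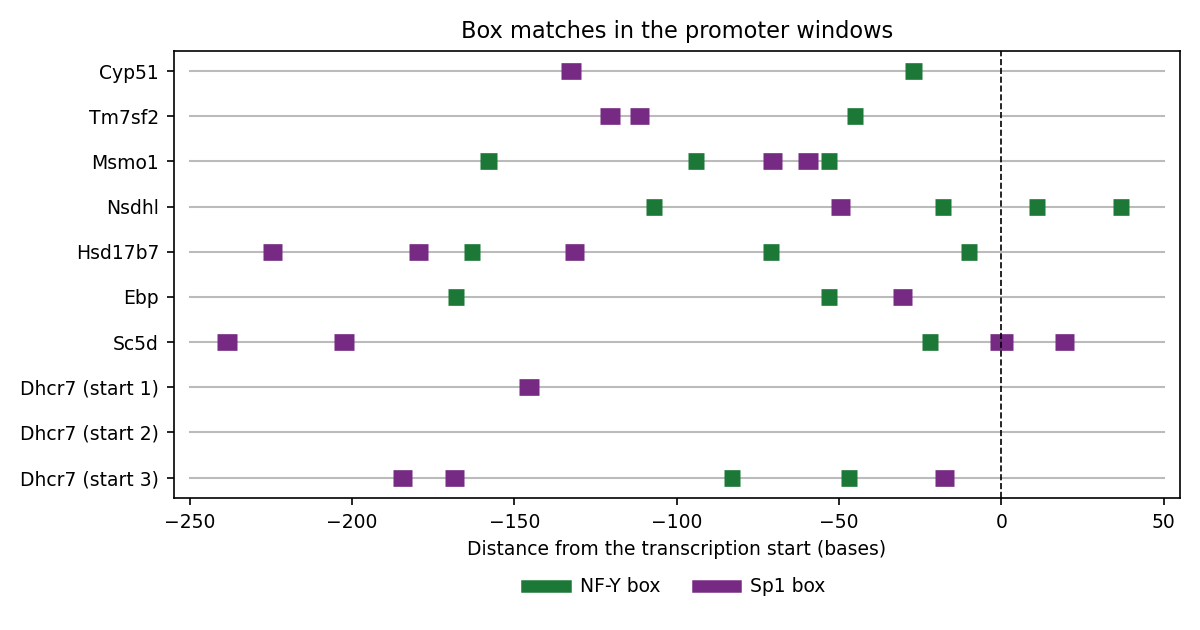
Positions of NF-Y box (green) and Sp1 box (purple) matches on either strand in the 10 promoter windows of the 8 genes, with distance from the transcription start in bases on the horizontal axis. Each gene has at least 1 window with both boxes, and the 17 NF-Y and 18 Sp1 box matches do not share 1 spacing.

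FPKM, fragments per kilobase of gene length scaled to the size of the library, allow levels to be compared between genes. The deposited FPKM were rescaled so that the typical gene had the same level in each library. Unless stated otherwise, all FPKM below are on this rescaled scale. The third Znf143 -/- library had been divided by the total of the second. The rescaling takes this up and also shifts libraries that had been divided by their own total. In Znf143 f/f cells, Ebp had by far the highest level, with an FPKM of 41.7 ± 3.36 (SD, n = 3), which was 2.87 times that of the next gene. Msmo1 followed with 14.5 ± 1.17 and Nsdhl with 13.4 ± 0.626 (SD, n = 3 each), and the libraries of these neighbours overlapped. Cyp51 had an FPKM of 11.1 ± 1.56, Dhcr7 of 9.01 ± 0.540 and Sc5d of 5.63 ± 1.06 (SD, n = 3 each), and neighbours in this part of the order did not overlap in the Znf143 f/f libraries. Tm7sf2 with 2.38 ± 0.225 and Hsd17b7 with 2.27 ± 0.153 (SD, n = 3 each) were the lowest, overlapped each other and lay near the middle of all tested genes, at percentiles 49.4 and 48.5 of the Znf143 f/f means. The level of Ebp was at percentile 91.2. Between 184 (Tm7sf2) and 5603 (Ebp) fragments per library stood behind each value.

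**Figure D2:**
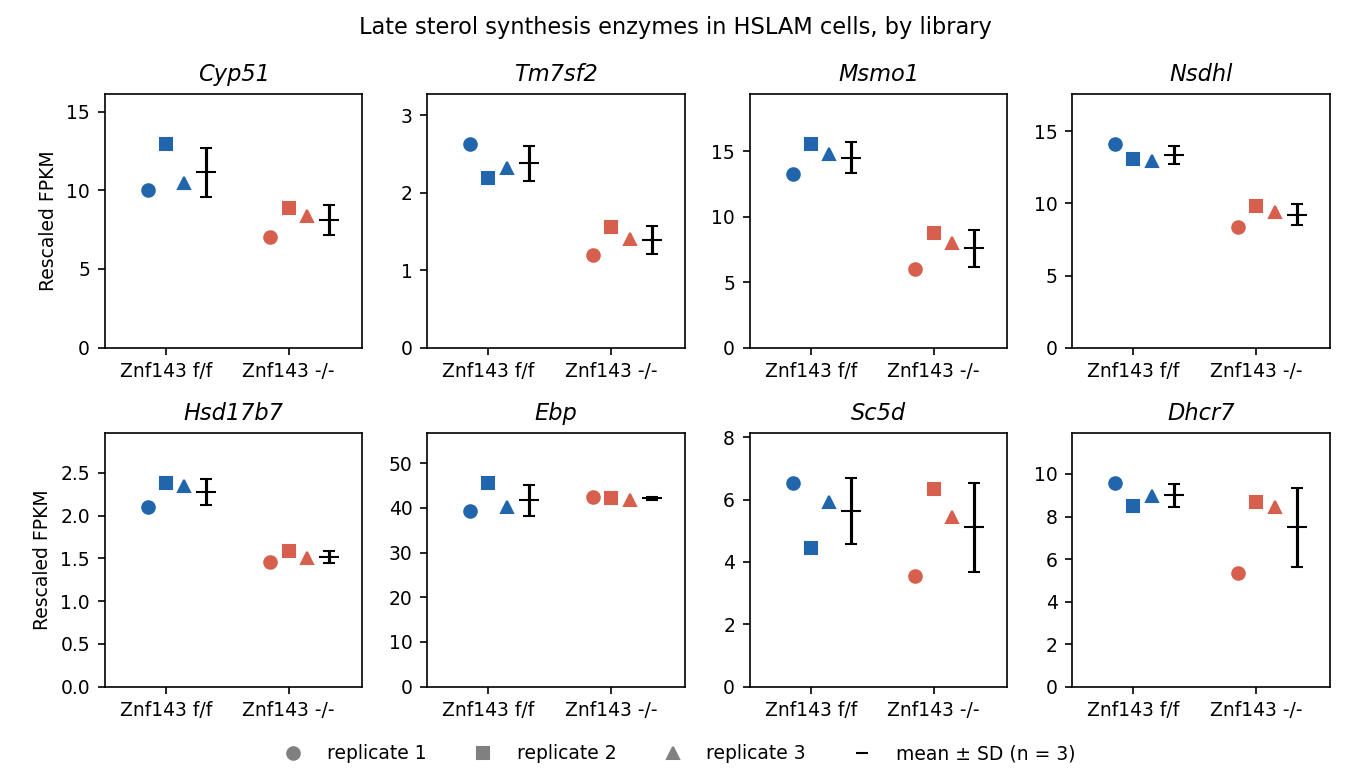
Rescaled FPKM of the 8 enzymes in each library (vertical axes start at 0), Znf143 f/f in blue and Znf143 -/- in red, with replicates as circles, squares and triangles and the mean ± SD of 3 libraries in black. In Cyp51, Tm7sf2, Msmo1, Nsdhl and Hsd17b7, all Znf143 -/- libraries lie below all Znf143 f/f libraries, whereas those of Ebp, Sc5d and Dhcr7 overlap.

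After rescaling, Cyp51, Tm7sf2, Msmo1, Nsdhl and Hsd17b7 were lower in each Znf143 -/- library than in any Znf143 f/f library. Ebp, Sc5d and Dhcr7 overlapped between genotypes. As deposited, 4 of the 8 were lower without overlap, since Cyp51 overlapped as well. No split by reaction was tested. The largest difference was that of Msmo1, whose mean was 47.7% lower. With limma across all genes, 3 of the 8 fell past an adjusted p of 0.05, namely Tm7sf2, Msmo1 and Nsdhl, and none rose. Of all 19293 genes tested, 2.99% fell past this threshold. That all 3 Znf143 -/- libraries lay below all 3 Znf143 f/f libraries was the case for 5 of the 8 enzymes and for 15.3% of all genes tested. Since the genes were selected on this contrast, nothing is read from these counts. All 8 passed the filter on low values, at a mean FPKM of at least 0.1. In RNA of sorted cells, fewer cells that express a gene and less of its RNA per cell cannot be told apart.

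The first enzyme of the stretch, Cyp51, is the cytochrome P450 that takes the first methyl group off lanosterol. The Znf143 f/f libraries had 10.04, 12.9 and 10.4 FPKM of Cyp51, compared with 7.06, 8.89 and 8.36 in Znf143 -/- libraries. The genotypes did not overlap after rescaling, but the second Znf143 f/f library stood above the others of its genotype. As deposited they did overlap, since the third Znf143 -/- library, at 10.04, lay above the first Znf143 f/f library, at 9.96. On the log2 scale the difference was -0.45 (standard error 0.138, 95% confidence interval -0.78 to -0.12), which did not pass the adjusted threshold.

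Tm7sf2 encodes a sterol reductase that removes the double bond left by Cyp51, a reaction that the lamin B receptor Lbr can also carry out. Tm7sf2 had an FPKM of 2.62, 2.18 and 2.32 in Znf143 f/f and of 1.196, 1.56 and 1.40 in Znf143 -/- libraries. The mean was 41.7% lower in Znf143 -/- cells, a log2 fold change of -0.74 (standard error 0.154, interval -1.11 to -0.37). Lbr itself, an inner nuclear membrane protein, had a much higher level, with a mean FPKM of 30.9 in Znf143 f/f and 35.2 in Znf143 -/- cells, and did not pass the threshold (log2 fold change 0.19, standard error 0.166, adjusted p = 0.539 from limma).

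Msmo1, Nsdhl and Hsd17b7 act in turn on the remaining paired methyl groups, Msmo1 as the oxidase, Nsdhl as the decarboxylating dehydrogenase and Hsd17b7 as the reductase that closes the cycle. Msmo1 had an FPKM of 13.2, 15.5 and 14.8 in Znf143 f/f and of 6.01, 8.76 and 7.99 in Znf143 -/- libraries. Its log2 fold change was -0.94 (standard error 0.155, interval -1.31 to -0.57), and the highest Znf143 -/- library was well below the lowest Znf143 f/f library. Nsdhl had an FPKM of 14.1, 13.1 and 12.96 in Znf143 f/f and of 8.40, 9.85 and 9.44 in Znf143 -/- libraries. This gave a log2 fold change of -0.53 (standard error 0.0950, interval -0.76 to -0.31), a smaller difference than that of Msmo1 but with less spread between libraries. Hsd17b7 had an FPKM of 2.10, 2.38 and 2.34 in Znf143 f/f and of 1.46, 1.59 and 1.51 in Znf143 -/- libraries. Its log2 fold change of -0.55 (standard error 0.127, interval -0.86 to -0.25) was close to that of Nsdhl and did not pass the adjusted threshold. By mean level, Msmo1 was in place 2 among the 8 in Znf143 f/f cells and in place 4 in Znf143 -/- cells, where its libraries overlapped those of Nsdhl, Cyp51 and Dhcr7.

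Ebp, the isomerase that shifts a double bond within the ring, had nearly the same level in both genotypes. The Znf143 f/f libraries had 39.2, 45.5 and 40.3 FPKM of Ebp, compared with 42.4, 42.3 and 41.8 in Znf143 -/- libraries, so that the Znf143 -/- values lay within the range of the Znf143 f/f values. A log2 fold change of 0.02 (standard error 0.0845) was found, and its 95% confidence interval reached from -0.18 to 0.22. This interval did not overlap those of Tm7sf2, Msmo1, Nsdhl and Hsd17b7 after rescaling, whereas as deposited (-0.20 to 0.46) it was apart from that of Msmo1 alone.

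Sc5d, a desaturase, and Dhcr7, the reductase that turns dehydrocholesterol into cholesterol, were split by 1 Znf143 -/- library. Sc5d had an FPKM of 6.52, 4.46 and 5.92 in Znf143 f/f and of 3.54, 6.34 and 5.46 in Znf143 -/- libraries. Dhcr7 had an FPKM of 9.56, 8.48 and 8.98 in Znf143 f/f and of 5.35, 8.70 and 8.43 in Znf143 -/- libraries. In both genes the first Znf143 -/- library was the lowest of all 6, and the other Znf143 -/- libraries were close to or within the Znf143 f/f range. The log2 fold change was -0.16 (standard error 0.244, interval -0.74 to 0.42) for Sc5d and -0.29 (standard error 0.193, interval -0.75 to 0.17) for Dhcr7. Without the first Znf143 -/- library, it was 0.08 for Sc5d and -0.07 for Dhcr7, whereas it was still -0.78 for Msmo1 and -0.47 for Nsdhl.

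**Figure D3:**
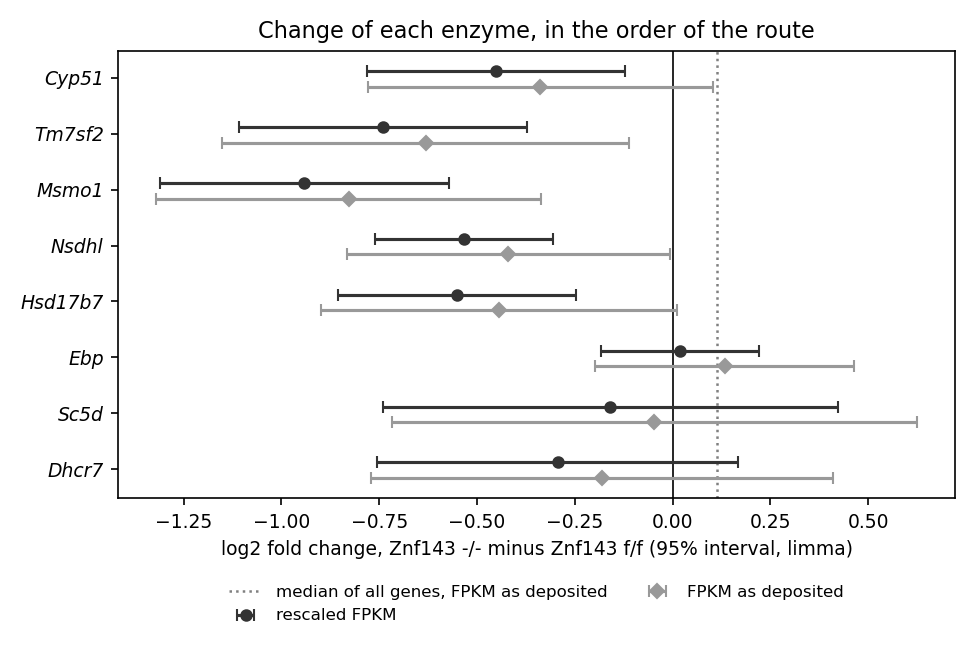
Log2 fold change of each enzyme with its 95% confidence interval from limma (horizontal axis), in the order of the list, from rescaled FPKM (dark circles) and from FPKM as deposited (grey diamonds). Values run from -0.94 (Msmo1) to 0.02 (Ebp) after rescaling, and the deposited values lie to the right by about the 0.11 shift of all genes (dotted line).

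The median log2 fold change of the 8 enzymes was -0.49, and that of all 19293 genes tested was 0.01. From the FPKM as deposited, the median was -0.38 for the 8 enzymes and 0.11 for all genes, and 0 of the 8 passed an adjusted p of 0.05 with limma, compared with 1.58% of all genes that fell past it under this scaling. At an unadjusted p under 0.05 there were 5 of 8 after rescaling and 3 of 8 as deposited, compared with 24.2% and 19.1% of all genes tested. With limma's voom on recovered fragments, 4 of 8 passed the adjusted threshold, as did 1400 genes over the whole table. Scaling each library to its own recovered fragments left 1 of 8, with 1003 genes over the whole table. Leaving out single libraries changed the calls here and over the whole table, where 1154 genes passed as reported. Without the first or the third Znf143 f/f library, 0 of 8 were left, with 370 and 259 genes over the whole table. Without the third Znf143 -/- library, 0 of 8 were left, with 223 genes, and without the second, 1 of 8, with 353 genes. Without the second Znf143 f/f or the first Znf143 -/- library, 3 of 8 passed, with 2286 and 2113 genes. Cyp51, Tm7sf2, Msmo1, Nsdhl, Hsd17b7 and Dhcr7 were lower in Znf143 -/- cells under all 16 alternatives tried, which refit the same libraries. Alternatives that change only the filter, the variance trend or the replicate block leave a fold change as it is and could not turn its direction.

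**Figure D4:**
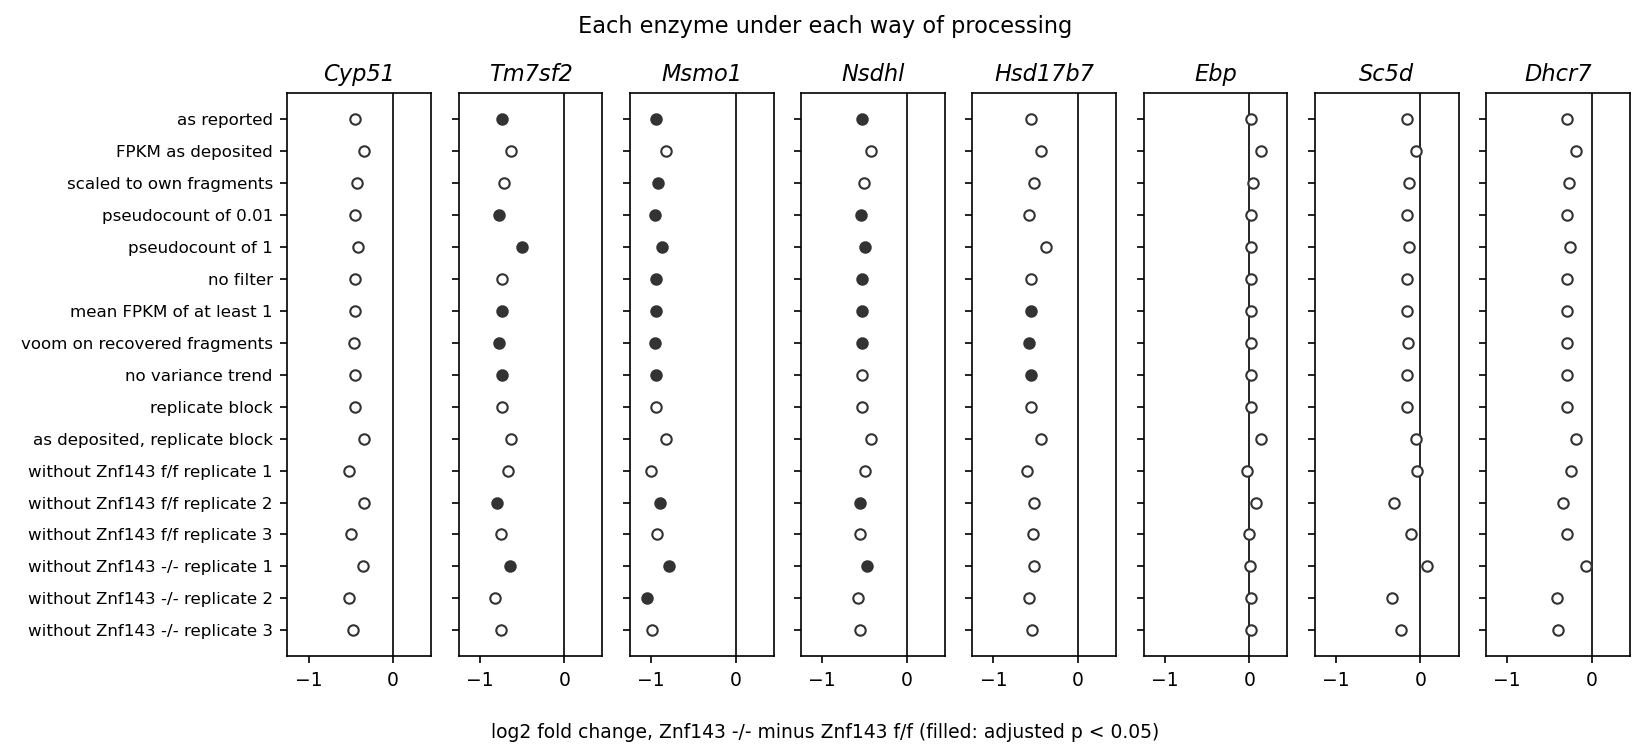
Log2 fold change of each enzyme (1 panel per gene) as reported and under 16 alternatives, with filled circles for an adjusted p under 0.05 from limma. Msmo1 passed in 10 of the 16 alternatives, Tm7sf2 and Nsdhl in 7 each and Hsd17b7 in 3, while Cyp51, Ebp, Sc5d and Dhcr7 passed in 0.

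The enzymes were then compared library by library. Taken as log2 ratios to the Znf143 f/f mean and averaged over the 8 genes, the Znf143 f/f libraries lay between -0.01 and 0.01, and the Znf143 -/- libraries were at -0.68, -0.30 and -0.39. The first Znf143 -/- library was the lowest of its genotype for 7 of the 8 genes, Ebp being the exception, whose highest value of that genotype was in this library. Msmo1 had the lowest ratio in each Znf143 -/- library, at -1.26, -0.72 and -0.85. Among the Znf143 f/f libraries, the second was the highest for 4 genes (Cyp51, Msmo1, Hsd17b7 and Ebp) and the lowest for 3 (Tm7sf2, Sc5d and Dhcr7), so that these libraries did not rank the 8 genes alike.

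Outside the group, the 5 genes whose levels were most like the mean of the 8 enzymes over the 6 libraries were Ltbp4, Cry2, Morn4, Fam199x and Zfp612, out of 12538 genes at a mean FPKM of 1 or more. Likeness was Pearson's r with the mean of the centred and scaled enzymes, and ranged from 0.994 (Zfp612) to 0.998 (Ltbp4). The 6 points fall into 2 genotypes, so that r is high for any gene that follows the genotype and is low in the first Znf143 -/- library, and it is given as a description of likeness. Cry2, a circadian clock repressor, had an FPKM of 2.15, 2.31 and 2.21 in Znf143 f/f and of 1.205, 1.70 and 1.53 in Znf143 -/- libraries. Ltbp4, which binds latent TGF-beta in the extracellular matrix, had 1.52, 1.86 and 1.44 in Znf143 f/f and 0.445, 0.959 and 0.818 in Znf143 -/- libraries. None of the 5 passed an adjusted p of 0.05, with adjusted p between 0.0529 and 0.151 from limma.

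The reactions before lanosterol were next set beside the 8 enzymes. Of 11 genes from acetyl-CoA to lanosterol, 3 fell past an adjusted p of 0.05 with limma and none rose, compared with 2.99% of all genes tested that fell. A log2 fold change below 0 was found for 10 of the 11 and for 49.35% of all genes tested, and the median of the 11 was -0.45. This list and those below were also chosen with earlier results known, and nothing is read from their counts. Hmgcs1, the synthase that makes HMG-CoA, fell from a mean FPKM of 7.60 to 4.93 (log2 fold change -0.62, standard error 0.121, adjusted p = 0.0370 from limma). Mvd, the decarboxylase that ends the mevalonate reactions, fell from 7.93 to 5.16 (log2 fold change -0.61, standard error 0.105, adjusted p = 0.0244 from limma). Fdps, which makes farnesyl diphosphate, fell from 3.97 to 2.74 (log2 fold change -0.52, standard error 0.106, adjusted p = 0.0408 from limma). Acat2, the thiolase at the start, was the 1 gene above 0, at 0.11 (standard error 0.200, adjusted p = 0.775 from limma). From FPKM as deposited, 0 of the 11 passed with limma and the median was -0.34. An unadjusted p under 0.05 was then found for 3 of the 11 and for 19.1% of all genes tested.

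Partners of the late enzymes did not share the lower median. Of 10 listed genes, among them the electron carriers Por, Cyb5a and Cyb5b that feed Cyp51, Msmo1 and Sc5d, 9 were in the table and tested, and 1 of these 9 fell while none rose. The median of the 9 was 0.10, with 3 below 0, compared with 49.35% of all genes tested. Por, the reductase that passes electrons to P450 enzymes, had a mean FPKM of 56.6 in Znf143 f/f and 57.8 in Znf143 -/- cells (log2 fold change 0.02, standard error 0.148, adjusted p = 0.958 from limma). Cyb5a, the most abundant of the list, had a mean FPKM of 195 and 168 (log2 fold change -0.21, standard error 0.0939, adjusted p = 0.223 from limma). Por and Cyb5a were chosen for their role after their values were seen, as was Lbr.

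Among 18 genes of sterol sensing, uptake and efflux, 6 fell and none rose, compared with 2.99% of all genes tested that fell. The median log2 fold change of the 18 was -0.22. Those that fell include Srebf1, Nr1h3, Abca1, Abcg1 and Stard4. Srebf1, a SREBP gene best known for fatty acid synthesis, fell from a mean FPKM of 18.9 to 13.98 (log2 fold change -0.43, standard error 0.0939, adjusted p = 0.0490 from limma). Nr1h3 encodes the sterol-activated receptor LXR-alpha and fell from 1.24 to 0.623 (log2 fold change -0.89, standard error 0.169, adjusted p = 0.0329 from limma). The cholesterol exporter gene Abca1 fell from 1.08 to 0.458 (log2 fold change -1.06, standard error 0.209, adjusted p = 0.0372 from limma). Stard4, a carrier of sterols between membranes, fell from 17.6 to 10.9 (log2 fold change -0.69, standard error 0.130, adjusted p = 0.0321 from limma). Srebf2, the SREBP gene tied most closely to sterol synthesis, had a mean FPKM of 40.2 in Znf143 f/f and 33.2 in Znf143 -/- cells and did not pass (log2 fold change -0.27, standard error 0.0856, adjusted p = 0.117 from limma), and it too was picked for its role with its values known. As deposited, 1 of the 18 fell past the threshold, compared with 1.58% of all genes, and it was none of the genes named here. Under the alternatives tried, the call was lost in 11 fits for Srebf1, 9 for Stard4 and 7 each for Nr1h3 and Abca1.

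Of 11 genes of fatty acid synthesis, 2 fell and none rose, with a median of -0.36, compared with 2.99% of all genes tested that fell. Scd2, a stearoyl-CoA desaturase, fell from a mean FPKM of 31.5 to 13.2 (log2 fold change -1.24, standard error 0.163, adjusted p = 0.00987 from limma), and Srebf1 is also in this list. Of 9 genes of the other branches that use mevalonate products, which lead to dolichol, ubiquinone and protein prenylation, 1 rose, none fell and the median was 0.16. The gene that rose was Fntb, the beta subunit of farnesyltransferase, from 5.71 to 7.96 (log2 fold change 0.47, standard error 0.1001, adjusted p = 0.0440 from limma), compared with 3.0% of all genes tested that rose. Neither Fntb nor the 3 mevalonate pathway genes passed with FPKM as deposited.

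**Figure D5:**
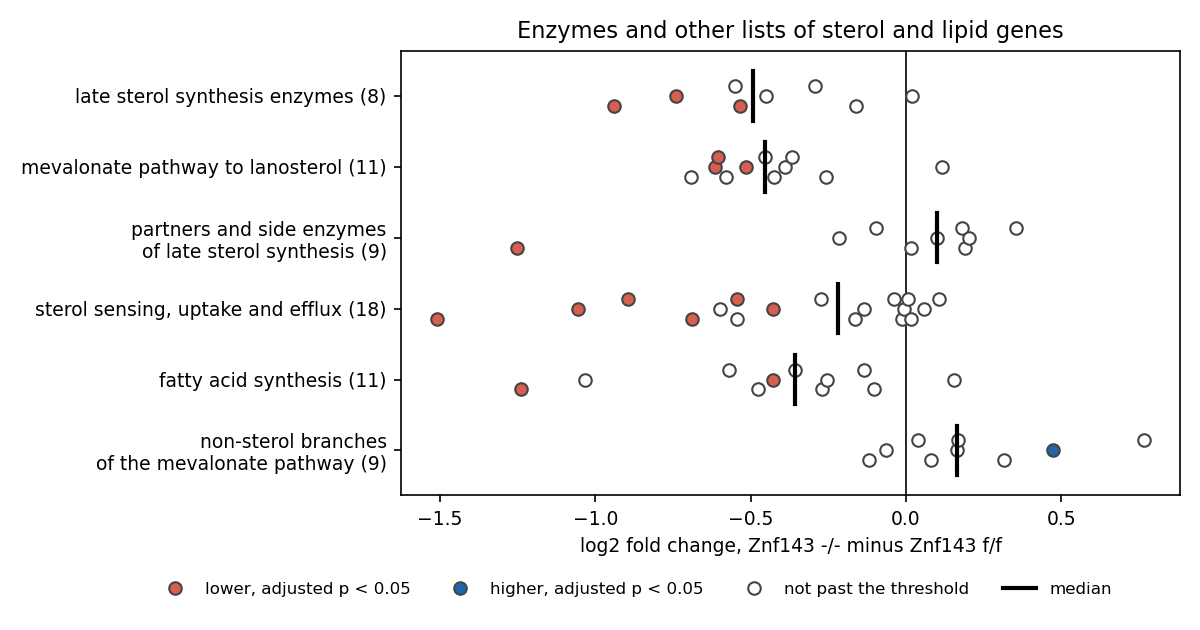
Log2 fold change of each tested gene (circles) in the 8 late sterol synthesis enzymes and in 5 other lists of sterol and lipid genes, with the number tested in brackets, the list median as a bar and filled circles for genes past an adjusted p of 0.05 from limma. Medians of the late enzymes (-0.49) and of the mevalonate pathway (-0.45) lie furthest to the left, and those of partner enzymes (0.10) and non-sterol branches (0.16) lie above 0.

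Over the whole table, 38643255 to 57895793 fragments were assigned to genes in each library, and 1154 of 19293 genes passed an adjusted p of 0.05 with limma. Zfp143, the mouse symbol of Znf143, had an FPKM of 3.09, 4.45 and 3.68 in Znf143 f/f and of 0.156, 0.299 and 0.272 in Znf143 -/- libraries, so that 6.48% of the mean level was left, as the titles of the libraries imply. Markers of other cells moved with genotype beside the enzymes. Cd48, whose protein was gated out, rose from a mean FPKM of 10.2 to 20.0, and the stem cell marker Ly6a rose from 267 to 582 while Mecom fell from 9.24 to 6.30, the 2 genes of 10 stem cell markers that passed. Of these 10, 8 had a log2 fold change below 0, compared with 49.35% of all genes tested, and the median was -0.41. All Znf143 -/- libraries lay below all Znf143 f/f libraries in 5, Kit and Hlf among them, and in 15.3% of all genes tested. The reverse held for Ly6a and for Slamf1, the gene of CD150, which had 7.63, 5.16 and 7.47 FPKM in Znf143 f/f and 7.91, 9.07 and 8.83 in Znf143 -/- libraries. Of 8 granulocyte and monocyte markers, Elane, Ctsg and S100a8 rose, compared with 3.0% of all genes tested. In this list 1 marker had a log2 fold change below 0, and the median was 1.33. The summed FPKM of the list was 736 to 814 in Znf143 f/f and 654 to 802 in Znf143 -/- libraries, most of it from Lyz2 (mean 556 and 426) and Prtn3 (mean 187 and 193), with Ctsg at 0 in the second Znf143 f/f library. Of 5 megakaryocyte and platelet markers, 0 had a log2 fold change below 0, the median was 0.66, and 0 passed the adjusted threshold with limma. An unadjusted p under 0.05 was found for 3 of the 5 after rescaling and for all 5 as deposited, compared with 24.2% and 19.1% of all genes tested. Their summed FPKM was 543 to 623 in Znf143 f/f and 675 to 1016 in Znf143 -/- libraries. Of 6 tested erythroid markers, Hbb-bt fell, and the sum over the 7 in the table was 41.9 to 87.3 and 40.5 to 47.8. Of the 6 lymphoid markers in the table, Nkg7 passed and rose from 124 to 226, while the other 5 were below the filter, with the T cell marker Cd3g at 0 in all Znf143 f/f libraries. Of 3 macrophage markers, with sums of 0.103 to 0.527 and 0.224 to 1.14, C1qb was tested and did not pass (adjusted p = 0.422 from limma), and the other 2 were below the filter. The part of these markers in the levels of the sterol enzymes was not tested.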

How the data were processed

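The RNA-seq libraries of HSLAM cells were analysed, 3 for each genotype and each from a separate mouse per the study's methods, and the ChIP-seq and HiC samples were not used here. Libraries were assigned to genotypes by their titles, since another label calls the deleted genotype a CTCF knockout. Per the study's methods and the labels, cDNA was made with SMART-Seq v4 and Nextera XT, and the authors used TrimGalore on the paired-end reads, STAR for alignment to GRCm38 and FeatureCounts for fragment counts. The authors deposited FPKM per gene and library with the gene length, beside their own DESeq2 comparison (mean count, fold change, test statistic and p-values), which was not used.

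Fragments were recovered from FPKM times length, and 138677 of 138696 values (99.986%) were within 0.05 of a whole number. The third Znf143 -/- library carried the divisor of the second, 1.20 times too small. FPKM were divided by median-of-ratios size factors, 0.992, 0.906 and 0.989 for Znf143 f/f and 0.927, 1.01 and 1.20 for Znf143 -/- libraries, computed over 19046 genes. These factors take up that divisor and also differ between libraries that had been divided by their own total. Multiplying by these factors gives the deposited values back.

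Genes with a mean rescaled FPKM of at least 0.1 were tested on log2(FPKM + 0.1), two-sided, with limma 3.58.1 in R 4.3.3 (lmFit and eBayes, trend = TRUE) and no block, with Benjamini-Hochberg adjustment over all 19293 genes. A fold change on this scale understates that of low genes. The smallest level told apart from 0, 3 fragments, equals an FPKM of 0.0516 to 0.0784 for a gene 1 kb long. This model was first run on simulated libraries with known changes. These were drawn with the same dispersion for each gene, which need not hold here, so that nothing about the calls in these data is read from them. Motifs were searched in RefSeq promoter windows on GRCm38.p6 with Python 3.11.15 and pandas 2.3.3, and figures were drawn with matplotlib 3.10.9. Of the 10 partner genes, Faxdc2 was not found under this symbol.

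The enzymes, the other gene lists and the motifs were chosen with earlier results of these data known. Named were the 8 enzymes, Zfp143 and the 5 genes most like the mean of the enzymes. Of each other list, up to 4 genes with the largest change among those that passed were named, or the 2 largest where none passed. Lbr, Por, Cyb5a and Srebf2 are marked in the text as chosen otherwise. Other genes, among them Acat2, Abcg1, Cyb5b and the cell markers, were also named outside this rule, with their values known. Some genes of these lists are not reported here. Alternatives were FPKM as deposited, each library scaled to its own recovered fragments, a pseudocount of 0.01 or 1, a filter at a mean FPKM of 1 or none at all, limma's voom on recovered fragments, no variance trend, the replicate number as a block with and without rescaling, each library left out, and motif matches before the start only.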

Additional observations from a re-analysis of the deposited data

How the results depend on the processing

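The median log2 fold change of the 8 enzymes was below 0 under all 16 alternatives and lay between -0.55 and -0.41 with each library left out. Changing only the filter, the variance trend or the replicate block leaves the fold changes as they are and could not move this median. The median moved by more than the 0.102 SD between libraries of a genotype when FPKM were taken as deposited, to -0.38 with or without the replicate block. The number of enzymes past an adjusted p of 0.05 with limma, 3 as reported, was 0 as deposited, 1 with each library scaled to its own recovered fragments, 0 with the replicate block, 0 as deposited with the replicate block, and 0 to 3 with single libraries left out. Over all genes, 1154 passed as reported (576 lower), 191 with the replicate block, 833 as deposited (304 lower, 529 higher), and 223 to 2286 with single libraries left out. In the 5 other pathway lists together, 12 genes passed as reported, 3 as deposited, 7 with own totals, 1 with the replicate block, 3 as deposited with the block, and 1 to 20 with single libraries left out. Deviations of same-numbered libraries correlated by -0.10, -0.09 and 0.04, which cannot show whether these libraries form a pair of littermates. Why calls were lost under the block was not tested.

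Direction turned for Ebp without the first (-0.022) or the third (-0.0037) Znf143 f/f library, in a range of -0.022 to 0.084 with single libraries left out, and for Sc5d without the first Znf143 -/- library (0.079), in a range of -0.33 to 0.079. Refits of single genes were counted for those picked by the rule above, including some not reported here, and not for genes named outside it. Of these 398 refits, 291 kept their direction and side of the threshold, 97 lost the call, 7 gained it and 3 turned in direction. The reason for each lost call was not tested, although fewer libraries were fitted when 1 was left out. Counts of promoters with a motif were the same when matches after the start were left out. Identity between the proteins was not run, because the sequences were not analysed here.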
